A study of Mus musculus with 59 samples.

Results

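The 8 genes described here carry out or feed the omega-oxidation of fatty acids in the endoplasmic reticulum of mouse liver: Cyp4a10, Cyp4a14, Cyp4a31, Cyp4a32, Cyp4a12a, Cyp4a12b, Por and Aldh3a2. Their peaks were collected from 7 ChIP-seq peak lists of BCL6, PPARα and PPARδ. A peak was counted for a gene if its centre lay inside the gene, or if the nearest transcription start site (TSS) of a protein-coding gene within 100 kb belonged to it. By this rule 142 of 102931 peaks were counted, at 8 of 21774 protein-coding genes. BCL6, PPARα and PPARδ were each mapped in livers of male C57BL/6 mice that were wild type and either fed ad libitum or fasted overnight, which gives 6 lists. The remaining list is BCL6 in fed Bcl6 fl/fl livers, also on C57BL/6, in which the Bcl6 gene carries loxP sites and no Cre acted. Each list rests on 3 animals, which the authors combined, and gives positions of peaks and nothing else. No height, count or depth comes with a peak, so a place in the genome could be scored only as called or not called. No spread between animals could be had and no difference between feeding states was tested. As the depth of the libraries is unknown, a place called in 1 state and not in the other may have passed the authors' threshold in 1 state only.

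In omega-oxidation, cytochrome P450 enzymes of the CYP4A family hydroxylate the terminal methyl group of a fatty acid. Cytochrome P450 oxidoreductase, the product of Por, passes them electrons from NADPH, and the fatty aldehyde dehydrogenase made from Aldh3a2 completes the oxidation to the acid. The dicarboxylic acids that result are shortened in peroxisomes. Cyp4a10 and Cyp4a14 are textbook targets of PPARα, a nuclear receptor that fatty acids activate and that is best known for its work in the fasted liver. PPARδ is a related receptor, and both bind DNA with RXR at pairs of hexamers with 1 base between them, called DR1. BCL6 is a zinc finger repressor best known from germinal centre B cells.

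The Cyp4a genes lie in a cluster on chromosome 4 of mm10 and arose by duplication, so several peaks lie in sequence that is present in more than 1 copy. Cyp4a12a (chr4:115299046-115332815), Cyp4a12b (chr4:115411624-115439034), Cyp4a10 (chr4:115518287-115533649), Cyp4a31 (chr4:115563649-115579015) and Cyp4a32 (chr4:115600938-115622366) run on the plus strand. Cyp4a14 (chr4:115486200-115496141) runs on the minus strand. Por (chr5:135689145-135735326) runs on the plus strand and Aldh3a2 (chr11:61244752-61267528) on the minus strand. The first sequences shown are the upstream copies at Cyp4a10, Cyp4a31 and Cyp4a32, because they hold 3 of the only 4 places at the 8 genes where PPARδ was called in fasted livers. They were read from the GRCm38.p6 reference, the assembly of mm10, 5′ to 3′ on the strand of the gene. Capitals mark matches, with at most 2 mismatches, to DR1, the hexamer AGGTCA repeated after 1 base of any kind.
Cyp4a10, 4130 bp upstream of the TSS, chr4:115513964-115514213, plus strand: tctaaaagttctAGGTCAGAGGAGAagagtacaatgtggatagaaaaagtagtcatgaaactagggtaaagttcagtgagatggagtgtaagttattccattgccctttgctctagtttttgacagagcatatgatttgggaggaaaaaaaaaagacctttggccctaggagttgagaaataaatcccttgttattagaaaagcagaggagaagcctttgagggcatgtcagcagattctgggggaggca
Cyp4a31, 8012 bp upstream of the TSS, chr4:115555565-115555814, plus strand: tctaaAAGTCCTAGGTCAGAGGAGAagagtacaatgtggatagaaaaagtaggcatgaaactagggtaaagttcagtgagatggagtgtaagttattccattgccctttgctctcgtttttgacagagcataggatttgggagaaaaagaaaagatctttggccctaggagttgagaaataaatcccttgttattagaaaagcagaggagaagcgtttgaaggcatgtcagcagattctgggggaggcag
Cyp4a32, 3992 bp upstream of the TSS, chr4:115596805-115597054, plus strand: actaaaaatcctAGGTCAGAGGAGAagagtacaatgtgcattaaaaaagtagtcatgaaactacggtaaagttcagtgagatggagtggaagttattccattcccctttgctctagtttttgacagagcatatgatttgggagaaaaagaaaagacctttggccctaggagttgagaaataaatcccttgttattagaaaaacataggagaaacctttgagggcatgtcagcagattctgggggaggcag

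In these 3 stretches of 250 bases, Cyp4a10 and Cyp4a31 were identical at 241 of 249 aligned bases (96.8%), Cyp4a10 and Cyp4a32 at 236 of 249 (94.8%), and Cyp4a31 and Cyp4a32 at 233 of 250 (93.2%). The DR1-like letters AGGTCAGAGGAGA, with 2 mismatches, stood in all 3. The Cyp4a31 copy held a second match, AAGTCCTAGGTCA, that shares 6 bases with the first. Peak centres lay at different distances from the middle of the shared letters. At Cyp4a31 the PPARδ centres were 16 bp before it in fed and 3 bp after it in fasted livers. At Cyp4a10 they were 104 and 108 bp after it, and at Cyp4a32 85 and 88 bp after it. The PPARα centres lay at 97 bp in fed and 91 bp in fasted livers at Cyp4a10, and at 81 and 78 bp at Cyp4a32. At Cyp4a31 PPARα was at -11 bp (before it) in fed and at 123 bp in fasted livers. The BCL6 centres lay farther along than those of PPARδ, at 135 bp in fed and 260 bp in fasted livers at Cyp4a10. They were at 168 and 153 bp at Cyp4a32. In fed livers at Cyp4a31 BCL6 was at 124 bp, beside the fasted PPARα centre. A match of letters is a description of the reference and not a measured contact.

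The next sequences lie in intron 1 of Cyp4a10 and Cyp4a31, where all 3 factors were also called but PPARδ in fed livers only. Here capitals mark a match to the BCL6 element TTCCTAGAA with at most 1 mismatch. The capitals of the Cyp4a10 copy have no counterpart with so few mismatches in the Cyp4a31 copy, and no DR1 match was present in either.
Cyp4a10, 1036 bp past the TSS, chr4:115519198-115519447, plus strand: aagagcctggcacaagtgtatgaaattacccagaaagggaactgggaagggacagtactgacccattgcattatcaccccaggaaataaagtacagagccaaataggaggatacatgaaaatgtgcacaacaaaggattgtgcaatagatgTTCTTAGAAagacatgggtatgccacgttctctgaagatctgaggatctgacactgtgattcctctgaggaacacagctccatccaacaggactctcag
Cyp4a31, 979 bp past the TSS, chr4:115564511-115564760, plus strand: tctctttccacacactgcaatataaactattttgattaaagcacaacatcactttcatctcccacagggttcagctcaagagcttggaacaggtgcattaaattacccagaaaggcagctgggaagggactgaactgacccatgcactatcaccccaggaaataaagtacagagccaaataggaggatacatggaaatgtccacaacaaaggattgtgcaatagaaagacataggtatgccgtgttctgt

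The last set shows the site that holds the study's ChIP-qPCR amplicon at Por, and the Aldh3a2 site where PPARδ was called in both states. Neither of these stretches held a DR1 or BCL6 match under the same limits, so they are printed without capitals.
Por, 1527 bp past the TSS in intron 1, chr5:135690549-135690795, plus strand: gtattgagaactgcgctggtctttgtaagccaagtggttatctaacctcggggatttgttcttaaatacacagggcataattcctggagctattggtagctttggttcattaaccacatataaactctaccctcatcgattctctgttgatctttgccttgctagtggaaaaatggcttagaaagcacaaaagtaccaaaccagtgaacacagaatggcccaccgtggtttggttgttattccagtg
Aldh3a2, 4294 bp upstream of the TSS, chr11:61271700-61271949, minus strand: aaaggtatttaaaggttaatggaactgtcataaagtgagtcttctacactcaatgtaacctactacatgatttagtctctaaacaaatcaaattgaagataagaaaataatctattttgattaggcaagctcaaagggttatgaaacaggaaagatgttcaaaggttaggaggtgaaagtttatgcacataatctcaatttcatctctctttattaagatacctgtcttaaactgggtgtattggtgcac

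Among the 8 genes, BCL6 peaks numbered 23 in fed and 21 in fasted C57BL/6 livers, a change of -8.70%. Over the whole lists the number went from 15642 to 9613, a change of -38.5%. PPARα peaks at the 8 genes numbered 24 in fed and 30 in fasted livers (25% more), where the whole lists went from 21410 to 29085 (35.8% more). PPARδ peaks numbered 15 in fed and 4 in fasted livers, a change of -73.3% at the 8 genes against -67.3% over the whole lists, which went from 7328 to 2399. For PPARα and PPARδ the numbers at the genes thus moved in the direction of the lists. For PPARα this direction turned when only peaks centred inside one of the genes were counted, 11 in fed and 10 in fasted livers. For BCL6 the number at these genes was nearly the same in both states while the list became shorter.

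Por held the most peaks, with 9 and 7 of BCL6 in fed and fasted livers, 9 and 11 of PPARα, and 6 and 0 of PPARδ. Aldh3a2 held 3 and 4 of BCL6, 4 and 5 of PPARα, and 2 and 1 of PPARδ. At Cyp4a31 the numbers were 3 and 3 of BCL6, 3 and 5 of PPARα, and 3 and 1 of PPARδ. Cyp4a10 was the only one of the 8 genes with the same number in fed and fasted livers for both BCL6 and PPARα, 2 in each list. Cyp4a14 gained peaks in the fasted lists, from 1 to 2 for BCL6 and from 2 to 4 for PPARα, and had 1 PPARδ peak in fed livers. Cyp4a32 went the other way, from 3 to 2 for BCL6 and from 3 to 1 for PPARα, with 1 PPARδ peak in each state. The genes Cyp4a12a and Cyp4a12b, whose products are the CYP4A12 enzymes that male mice express in liver and kidney, held the fewest. Cyp4a12a had 2 and 1 peaks of BCL6 and 1 and 1 of PPARα, Cyp4a12b had 1 PPARα peak in fasted livers, and neither had a PPARδ peak.

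**Figure D1:**
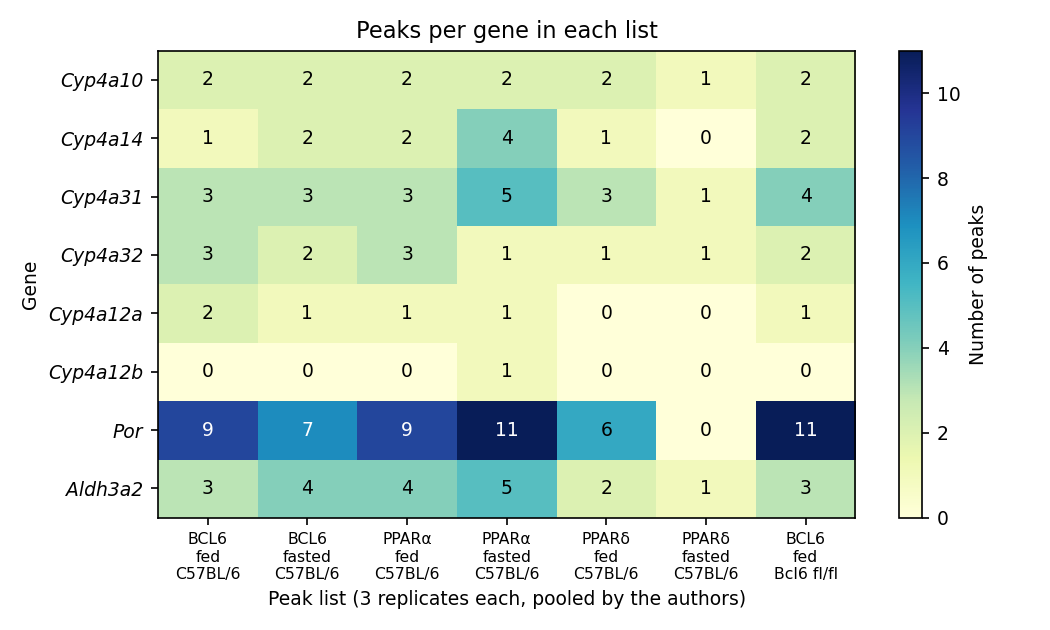
Number of peaks of each of the 8 genes (rows) in each of the 7 peak lists (columns), as counts in the cells and as colour. Por holds up to 11 peaks in a list and none in the PPARδ list of fasted livers, while Cyp4a10 holds 1 or 2 in every list.

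Peaks of the 6 C57BL/6 lists whose centres lay within 200 bp of each other were joined into sites. The 8 genes held 36 of 38462 sites, 26 with BCL6, 35 with PPARα and 15 with PPARδ. A site was assigned to 48.8% of all protein-coding genes, and to all 8 of these. Genes other than the 8 took sites by the nearest TSS alone, a narrower rule. BCL6 had a site at 7 of the 8 genes (27.8% of all protein-coding genes), PPARα at 8 (45.6%) and PPARδ at 6 (18.7%). The positions assigned to the 8 genes covered 459 kb and held 7.84 sites per 100 kb, against 2.10 over all protein-coding genes. This density was 17.6 at Por, 15.2 at Cyp4a14, 12.2 at Cyp4a31, 7.46 at Aldh3a2, 7.14 at Cyp4a32 and 5.88 at Cyp4a10. It was 2.38 at Cyp4a12a and 1.19 at Cyp4a12b, near or under that of all genes.

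Sites of the factors coincided at these genes. PPARα was called at 25 of the 26 BCL6 sites (96.2%, 95% Wilson interval 81.1 to 99.3), against 77.5% of all BCL6 sites. BCL6 was called at 25 of the 35 PPARα sites (71.4%, 54.9 to 83.7), against 40.9% of all PPARα sites. All 15 PPARδ sites also had PPARα and BCL6, where 85.0% of all PPARδ sites had PPARα and 57.8% had BCL6. Sites of all 3 factors made up 15 of the 25 sites of BCL6 and PPARα (60%, 40.7 to 76.6), against 34.1% in all. The centres of BCL6 and PPARα at the 25 sites were a median of 7 bp apart, ranging from 0 to 76 bp, and over all such sites the median was 14 bp. The intervals cover counting error only, and the copied Cyp4a sites are not independent of each other, so no test was made of these shares.

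By feeding state, BCL6 was called in both states at 18 of its 26 sites (69.2%, 50.0 to 83.5), against 43.6% of all BCL6 sites. A further 5 sites were fed only (19.2%, 8.51 to 37.9), against 45.3% in all, and 3 were fasted only (11.5%, 4.00 to 29.0), against 11.0% in all. Where sites of all 3 factors were set beside each other, BCL6 was called in both states at 13 of 15 (86.7%, 62.1 to 96.3), against 64.0% in all. At the sites of BCL6 and PPARα without PPARδ it was called in both at 4 of 10 (40.0%, 16.8 to 68.7), near the 43.3% of all such sites. Of the 18 sites with BCL6 in both states, 13 were thus sites with PPARδ as well.

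Of the 35 PPARα sites, 19 were called in both states (54.3%, 38.2 to 69.5), against 51.3% in all. Fasted only sites numbered 11 (31.4%, 18.6 to 48.0), against 35.8%, and fed only sites 5 (14.3%, 6.26 to 29.4), against 12.8%. These shares were close to those of all PPARα sites. Among PPARα sites without BCL6, 8 of 10 were fasted only (80%, 49.0 to 94.3), against 52.6% in all. Among those with BCL6, 3 of 25 were (12.0%, 4.17 to 30.0), against 11.6%. PPARα was called in both states at all 15 sites of all 3 factors, where the share in all was 93.0%.

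Of the 15 PPARδ sites, 11 were fed only (73.3%, 48.0 to 89.1), against 70.7% in all, and 4 were called in both states (26.7%, 10.9 to 52.0), against 18.7%. None was fasted only (0 of 15), against 10.6% in all. The Wilson interval of that 0 reaches 20.4%. The 4 sites in both states were the upstream copies of Cyp4a10, Cyp4a31 and Cyp4a32 shown above and the upstream Aldh3a2 site. BCL6 and PPARα were called in both states at each of these 4 as well, except that BCL6 at the Cyp4a31 copy was fed only.

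**Figure D2:**
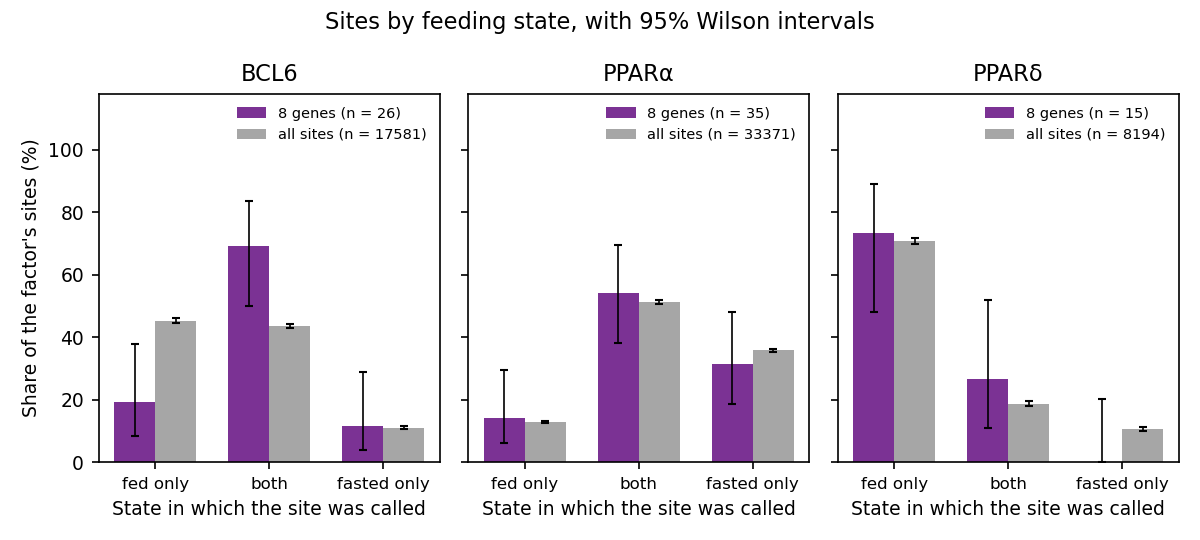
Share of the sites of each factor (percent, y axis) called fed only, in both states or fasted only, for the 8 genes (purple) and for all sites (grey), with 95% Wilson intervals as bars. For BCL6 the share in both states was 69.2% at the 8 genes and 43.6% in all, while the purple and grey bars of PPARα differ by less than the intervals.

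The P450 genes held 18 sites, 13 with BCL6, 18 with PPARα and 7 with PPARδ. They fell in a recurring order at Cyp4a10, Cyp4a31 and Cyp4a32: an upstream site and a site early in intron 1. The upstream sites have been described above. In intron 1, Cyp4a10 (1036 bp past the TSS) and Cyp4a31 (979 bp) each had BCL6 and PPARα in both states and PPARδ in fed livers only. The Cyp4a32 site, 932 bp past the TSS, had BCL6 and PPARα in fed livers only and no PPARδ, and its centre was 88.8% identical to the Cyp4a10 copy and 85.0% identical to the Cyp4a31 copy over 201 and 197 aligned bases. The calls thus differed between the intron 1 sites more than between the upstream sites, and the share of sequence to which reads could be placed also differed between them, as given with the uniqueness values.

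The sites within 200 bp of a TSS were 4, all at Cyp4a genes, and they differed between copies. Cyp4a14 had BCL6 and PPARα 64 bp upstream in fasted livers only. Cyp4a31 had PPARα 61 bp upstream and Cyp4a12b PPARα 76 bp upstream, both in fasted livers only. Cyp4a32 had BCL6 168 bp upstream in both states, with PPARα in fed livers only. PPARα was thus fasted only at 3 of the 4 (75%, 30.1 to 95.4), and at 64.6% of all PPARα sites this near to a TSS. No site lay within 200 bp of the TSS of Cyp4a10, Cyp4a12a, Por or Aldh3a2.

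Cyp4a31 held 2 sites in intron 11 that no other Cyp4a gene had. The first, 11821 bp past the TSS, had BCL6 and PPARα in both states with centres 0 bp apart at the nearest, and PPARδ in fed livers only. The second, 12364 bp past the TSS, had BCL6 and PPARα in fasted livers only. A stretch of Cyp4a10 was 95.5% identical to the centre of the first and 93.0% identical to that of the second, and stretches of Cyp4a32 were 89.9% and 93.0% identical. No peak of the 6 lists was called at any of these 4 stretches. The remaining P450 sites were scattered. Cyp4a14 had a site of all 3 factors 1519 bp upstream, with BCL6 and PPARα in both states and PPARδ in fed livers only, and PPARα alone at 7879 bp upstream (fasted only) and at 11117 bp (fasted only) and 12601 bp (fed only) past the TSS, beyond the end of the gene. Cyp4a12a had a site 15466 bp upstream with BCL6 in fed and PPARα in fasted livers only. Its other site, 27268 bp past the TSS, was the only one of the 36 centred in an exon, exon 5, and had BCL6 in both states and PPARα in fed livers only.

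**Figure D3:**
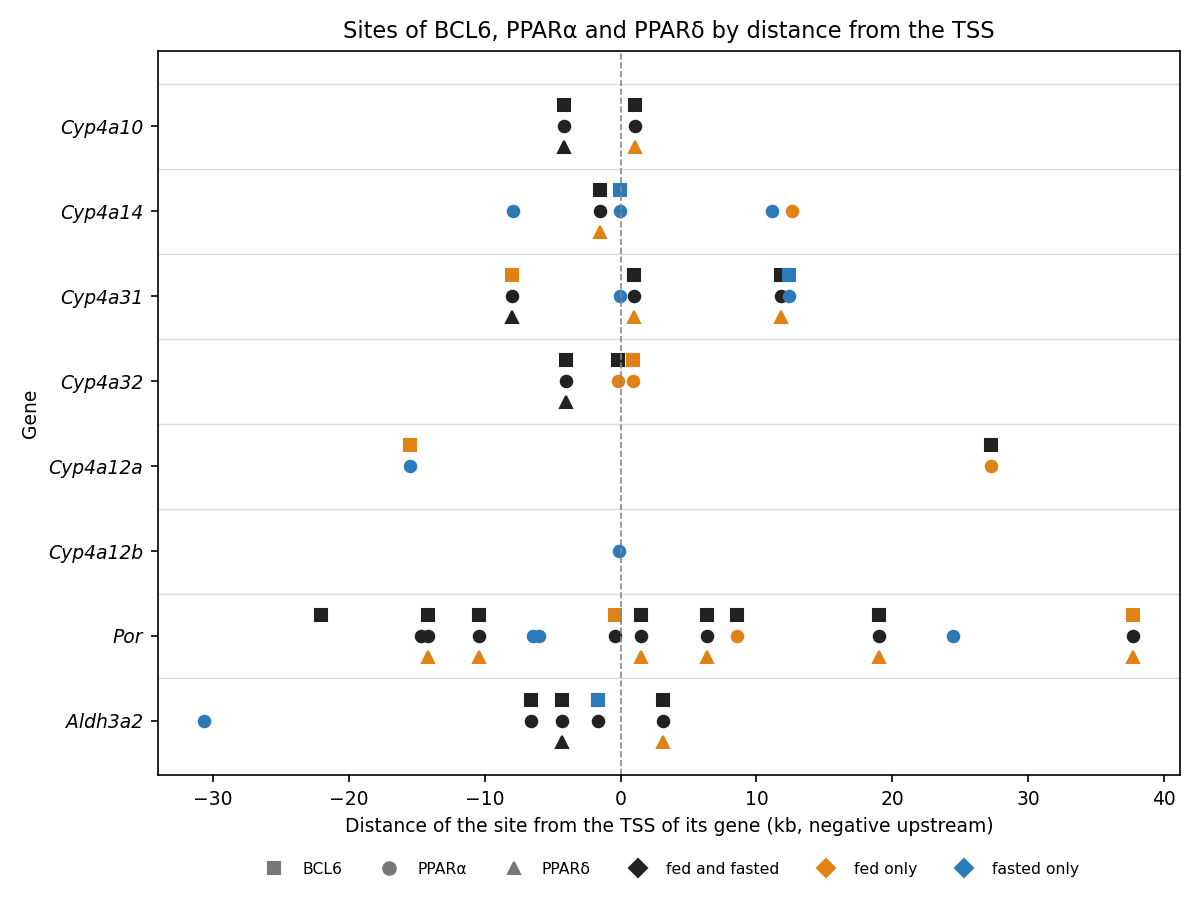
Sites of the 8 genes by distance from the TSS of the gene (kb, x axis, negative upstream), with BCL6 as squares, PPARα as circles and PPARδ as triangles, coloured by the state in which they were called. The black triangles are the 4 sites with PPARδ in fed and fasted livers, at Cyp4a10, Cyp4a31, Cyp4a32 and Aldh3a2, and the 6 triangles of Por are all fed only.

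The authors reported uniquely mapped reads only, so copied sequence can lose peaks. The share of words of 75 bases, the length of the reads, that occur once in the genome was therefore computed over each gene with 5 kb to either side. It was 99.2% at Por, 98.2% at Aldh3a2 and 99.6% at Cyp4a14, and fell to 94.3% at Cyp4a31, 86.7% at Cyp4a10, 82.1% at Cyp4a32, 71.4% at Cyp4a12b and 68.6% at Cyp4a12a. With words that have a second place within 2 mismatches also set aside, it was between 97.1% and 97.6% at Por, Aldh3a2 and Cyp4a14, 74.6% at Cyp4a31, 63.4% at Cyp4a10, 63.3% at Cyp4a32, 45.3% at Cyp4a12b and 39.8% at Cyp4a12a. The genes with the lowest density of sites, Cyp4a12a and Cyp4a12b, were also those with the least unique sequence, and its part in their counts was not tested.

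The same measure was taken at single sites. At the upstream copies every word was found once by exact match, but within 2 mismatches only 58.7% were at Cyp4a10, 65.9% at Cyp4a31 and 78.4% at Cyp4a32. The part of this in the calls was not tested. The Aldh3a2 site 4294 bp upstream was 100% unique by both measures. The intron 1 sites were unequal: Cyp4a10 was 100% unique by exact match and 98.9% within 2 mismatches, Cyp4a31 78.7% and 68.0%, and Cyp4a32 79.6% and 71.1%. The part of this in the unlike calls of intron 1 was not tested either. The stretches of Cyp4a10 that resemble the Cyp4a31 intron 11 sites and had no peak were 100% unique by exact match and 85.8% and 92.4% within 2 mismatches. The stretch of Cyp4a12a that matches the Cyp4a12b start site at 97.5% of bases was 60.4% and 49.8% unique, and the Cyp4a12b site itself 59.9% and 46.5%.

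**Figure D4:**
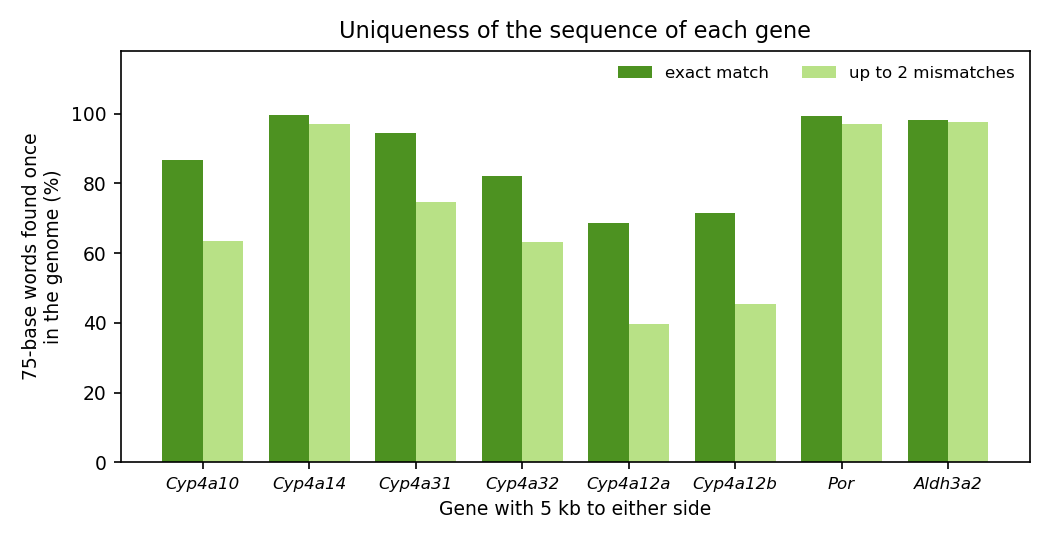
Share of words of 75 bases that occur once in the genome (percent, y axis) for each gene with 5 kb to either side, by exact match (dark green) and with up to 2 mismatches allowed (light green). Por, Aldh3a2 and Cyp4a14 are at 97.1% or more by both measures, while Cyp4a12a and Cyp4a12b are at 39.8% and 45.3% with mismatches allowed.

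Por, the shared electron donor of microsomal P450 enzymes, held 13 sites, 9 with BCL6, 12 with PPARα and 6 with PPARδ. At least 13 sites were found at 192 of 21774 protein-coding genes (0.882%), and at least 6 sites of all 3 factors at 17 (0.0781%). Por also took sites by position inside the gene, a wider rule, so neither share is a like-for-like rank. By the nearest TSS alone, fed PPARδ peaks at the genes described here numbered 14 in place of 15. How many Por sites would remain under that rule was not counted. The 6 sites of all 3 factors at Por lay 14149 and 10395 bp upstream and 1527, 6337, 19006 and 37712 bp past the TSS. The last was in intron 2 and the others past the TSS in intron 1. PPARα was called in both states at all 6, PPARδ in fed livers only at all 6, and BCL6 in both states at each but the site at 37712 bp, where it was fed only. Of the other Por sites, the one 22010 bp upstream had BCL6 alone, in both states, and was the only one of the 36 sites without PPARα. It held 2 matches to the BCL6 element, TTCCTGGAA on the plus strand and TTCTTAGAA on the minus strand. At 402 bp upstream PPARα was called in both states and BCL6 was fed only, and the site at 8566 bp in intron 1 had BCL6 in both states and PPARα in fed livers only. PPARα stood alone in both states 14665 bp upstream and in fasted livers only at 6467 and 5976 bp upstream and at 24466 bp past the TSS.

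The genes whose peak counts in the 7 lists were most like those of Por were Egfr, Tle3 and Eif1a, at Euclidean distances of 2.24, 2.83 and 3.16 peaks. Their peaks were counted by the nearest TSS alone, those of Por also by position inside the gene. Egfr, the epidermal growth factor receptor, had 9 and 5 BCL6 peaks, 9 and 11 PPARα peaks and 5 and 0 PPARδ peaks in fed and fasted livers. Tle3 had 9 and 7 of BCL6, 11 and 11 of PPARα and 6 and 0 of PPARδ. Its BCL6 and PPARδ numbers were the same as those of Por. Eif1a had 9 and 6 of BCL6, 9 and 10 of PPARα and 8 and 0 of PPARδ.

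Aldh3a2 held 5 sites, 4 with BCL6, 5 with PPARα and 2 with PPARδ. At 4294 bp upstream all 3 factors were called in both states, with the nearest BCL6 and PPARα centres 0 bp apart. A site in intron 3, 3151 bp past the TSS, had BCL6 and PPARα in both states and PPARδ in fed livers only. At 1628 bp upstream PPARα was called in both states and BCL6 in fasted livers only, and the DR1-like letters AGCTCAGAGTTCA stood there. The site 6578 bp upstream had BCL6 and PPARα in both states, and the site 30604 bp upstream had PPARα in fasted livers only. BCL6 was called in both states at 3 of the 4 Aldh3a2 sites and at none of them in fed livers alone.

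Across the 36 sites, a DR1 match lay within the 50 bp at the centre of a peak at 3: Cyp4a31 8012 bp upstream, Por 19006 bp past the TSS (AGGTCAATGTTCA) and Aldh3a2 1628 bp upstream. Anywhere in the site a match was present at 5 of 36, which adds the upstream Cyp4a10 and Cyp4a32 copies. In the fed PPARα list 2 of 24 peaks at these genes had a central match (8.33%, 2.32 to 25.8), against 4.19% of all peaks of the list, and in the fasted PPARα list 0 of 30, against 4.86%. In the fed PPARδ list 2 of 15 had one (13.3%, 3.74 to 37.9), against 7.45%. The BCL6 element was present centrally at 2 sites, Cyp4a10 in intron 1 and Por 22010 bp upstream, and anywhere at 4. In the fed BCL6 list 1 of 23 peaks had it centrally (4.35%, 0.772 to 21.0), against 5.01% of all. In the fasted BCL6 list 2 of 21 did (9.52%, 2.65 to 28.9), against 5.23%. In the Bcl6 fl/fl list 3 of 25 did (12.0%, 4.17 to 30.0), against 5.87%. The looser STAT-like letters TTCNNNGAA, searched without mismatch and able to overlap the BCL6 element, were present centrally at 2 sites and anywhere at 6. All scans read both strands. At these numbers the members' shares cannot be told from those of the lists. In RefSeq promoters (GRCm38.p6, 250 bases before to 50 after the start), DR1 was present in 3.86% of 32851, the BCL6 element in 8.63% and the STAT-like letters in 8.30%. Entries for Cyp4a32, Por and Aldh3a2 were matched, and they held none of these letters.

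The study's ChIP-qPCR primers for Por (TGGAGCTATTGGTAGCTTTGG and CAACAGAGAATCGATGAGGGTAG) bound 65 bp at chr5:135690633-135690697 in intron 1, within the Por site 1527 bp past the TSS. The pair matched 1 place on its chromosome. The amplicon had a peak in 6 of the 7 lists, all but PPARδ in fasted livers.

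The fed BCL6 list of Bcl6 fl/fl livers, from separate mice, had a peak within 200 bp of 21 of the 23 fed C57BL/6 peaks at the 8 genes (91.3%, 73.2 to 97.6), against 69.4% of all peaks. In the other direction 21 of its 25 peaks had a C57BL/6 peak (84.0%, 65.3 to 93.6), against 62.2%. All 18 sites with BCL6 in both states had a Bcl6 fl/fl peak, against 88.7% in all. So did 3 of the 5 fed only sites (51.1% in all) and 1 of the 3 fasted only sites (49.2% in all). The 4 peaks of the Bcl6 fl/fl list without a fed C57BL/6 peak lay at Cyp4a14 7879 bp upstream, in intron 11 of Cyp4a31, and at 13183 and 32076 bp past the Por TSS. At the intron 11 place BCL6 in C57BL/6 livers had been called in fasted mice only, so the fed lists of the 2 genotypes differed there.

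Other genes of omega-oxidation and of electron transfer to P450 enzymes were counted by the nearest TSS within 100 kb alone. A centre inside such a gene but nearer to the TSS of another was not counted for it. Of 21 genes, 17 had at least 1 site, 8 had at least 3, and 6 had a site of all 3 factors. Of all protein-coding genes, 48.8% had at least 1 site, 19.7% at least 3 and 11.3% a site of all 3. Cyb5a, which encodes cytochrome b5, an electron carrier to P450 enzymes, had 10 sites, 6 with BCL6, 10 with PPARα and 2 with PPARδ. Its reductase gene Cyb5r3 had 4 sites, 4 with PPARα and 2 with PPARδ, and no BCL6 site. The alcohol dehydrogenase genes Adh7 and Adh4 had 7 and 4 sites, 5 and 1 with BCL6. Of the other CYP4 genes, Cyp4f15, Cyp4f17 and Cyp4v3 had 4 sites each, 2 of them with BCL6 at each gene. Cyp4x1, next to the Cyp4a cluster, had 3 sites with PPARα and none with BCL6 or PPARδ. Peak positions measure no expression, so the tissue was not checked by marker levels. The hepatocyte genes Alb, Apoa1, Ttr and Hnf4a held 44 sites, and each had at least 1, against 48.8% of all protein-coding genes.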

How the data were processed

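Peak lists of 21 of the 59 samples of the series were used, and the other samples were not analysed here. Per the study's methods, the authors aligned 75-base single-end reads to mm10 with Bowtie, reporting uniquely mapped reads only, and kept 1 read per start position. HOMER called peaks on the pooled replicates against input, and DESeq2 on single libraries kept those that passed the authors' limits on enrichment and false discovery rate. The deposited positions carry no count, score or other value. The peak width, read from 1 peak of each list, ran from 192 to 222 bp. Depth is unknown.

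Here, centres within 200 bp were joined by single linkage. Genes were the curated RefSeq transcripts of 21774 protein-coding genes on GRCm38.p6 (38892 transcripts). A centre inside a gene was counted for that gene at the 8 members only. All other genes took peaks and sites by the nearest TSS within 100 kb alone. A promoter ran from 1000 bp upstream to 100 bp downstream. Words of 75 bases were counted on both strands of the chromosomes. Shares have 95% Wilson intervals, which cover counting error only. Joining, assignment and word counting were tested on simulated data. The genes, lists and rules were chosen with earlier results of these data known. The named genes were all 8 members, other pathway genes with at least 3 sites, the 3 genes nearest to Por in peak counts, and the hepatocyte genes Alb, Apoa1, Ttr and Hnf4a, whose sites were counted once. Sequences were printed for at most 8 sites, taken from sites of all 3 factors and an amplicon site. A further amplicon is not reported here. Alternatives covered the assignment of peaks, the joining distance, the BCL6 list, the promoter window and the motif scan. The work used Python 3.11.15, NumPy 2.4.6, Biopython 1.88, numba 0.67.0 and Matplotlib 3.10.9.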

Additional observations from a re-analysis of the deposited data

How the results depend on the processing

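Counting only peaks centred inside one of the 8 genes left 11 BCL6 peaks in fed and 10 in fasted livers, 11 and 10 of PPARα, 8 and 0 of PPARδ, and 13 of BCL6 in Bcl6 fl/fl livers, since this rule leaves out all upstream peaks, and the PPARα numbers then fell with fasting in place of rising. The 4 PPARδ peaks of fasted livers therefore all lay outside the genes. The DR1 count of 3 sites became 0 with 1 mismatch, 13 with 3 mismatches and 5 over the whole peak. The BCL6 element count of 2 sites became 0 with no mismatch and 4 over the whole peak. The other 95 values computed under alternatives stayed within 1.5 times the reported one, including 36 to 38 sites and 17 to 19 sites with BCL6 in both states. Adding predicted transcripts and allowing 2 mismatches in the word count were chosen after seeing the data. No paired analysis was possible because each list combines its replicates. No replicate could be left out for the same reason. Depth is unknown, so a site that was not called cannot be taken as free of the factor.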
